A study of Mus musculus with 6 samples.

Results

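The synaptonemal complex and HORMA domain genes considered here are 10 genes chosen by symbol: Sycp1, Sycp2, Sycp3, Syce1, Syce2, Syce3, Tex12, Hormad1, Hormad2 and Tex11. All 10 were present among the 45777 genes of the table, and all 10 were among the 25073 genes that passed the filter on low counts. They were measured by total RNA sequencing in whole testis of wild-type mice, 3 libraries from mice kept for 16 weeks on an ethanol liquid diet (10 ml of LDC diet per head each day) and 3 from mice kept as long on a control diet. Both groups were first fed the control diet for 5 days. The mouse strain and age and the ethanol dose are not given in the labels. Whether each library stands for its own animal is not stated in the labels, and p-values here therefore measure the spread between samples, part of which may be technical.

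In the first division of meiosis, each chromosome is organised as loops along a protein axis, and the axes of the 2 homologous chromosomes are then zipped together by the synaptonemal complex. SYCP2 and SYCP3 build the axis, SYCP1 forms the transverse filaments that span the gap, and SYCE1, SYCE2, SYCE3 and TEX12 make up the central element that holds the filaments together. HORMAD1 and HORMAD2 sit on axes that are not yet paired and leave when synapsis is complete, and TEX11, encoded on the X chromosome, is a crossover factor that binds SYCP2. In the testis these genes are read mainly in spermatocytes, and loss of most of them arrests spermatogenesis in the mouse.

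Total counts ranged from 38935654 to 47420249 per library, and the 10 genes together took between 0.150% and 0.163% of them. The spermatocyte marker list was read in all 6 libraries for 10 of its 10 genes, with summed levels of 5994 to 6393 CPM in controls and 5757 to 6193 CPM with ethanol. CPM are counts scaled to library size with trimmed mean of M-values (TMM) factors. The summed Sertoli cell markers lay between 366 and 385 CPM in controls and between 423 and 471 CPM with ethanol, without overlap, and red blood cell markers between 28.4 and 44.4 CPM and between 56.6 and 69.1 CPM. Macrophage and leukocyte markers, 5 of 7 read in all libraries, were also without overlap, at 77.2 to 82.3 CPM and 91.5 to 98.1 CPM. Of 6 epididymis markers 0 were read in every library, and Lcn5 and Defb42 were at 0 throughout. The part that these other cell types have in the values below was not tested. In whole tissue, fewer spermatocytes and less RNA per spermatocyte cannot be told apart.

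In every library the transcripts of the complex differed widely in level, in an order that was much the same in all libraries. Levels between genes are given as TPM, in which counts are divided by gene length. Syce1 stood highest, at 489 ± 17.8 TPM (SD over 6 libraries), a level above 99.0% of tested genes, and its lowest library, at 476 TPM, lay above every other member. Sycp3 followed at 213 ± 24.0 TPM and Syce2 at 204 ± 3.76 TPM, and these 2 neighbours overlapped, with Sycp3 above Syce2 in 4 of 6 libraries. Syce3 at 185 ± 9.22 TPM and Sycp2 at 177 ± 12.2 TPM could not be ranked either, with Syce3 the higher in 3 of 6 libraries. Hormad1 at 143 ± 12.3 TPM and Sycp1 at 136 ± 7.25 TPM overlapped, with Hormad1 the higher in 5 of 6. A step down led to Tex12, at 32.1 ± 2.51 TPM, and Hormad2, at 29.5 ± 2.78 TPM, which overlapped, and Tex11 was lowest, at 10.8 ± 1.15 TPM.

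**Figure D1:**
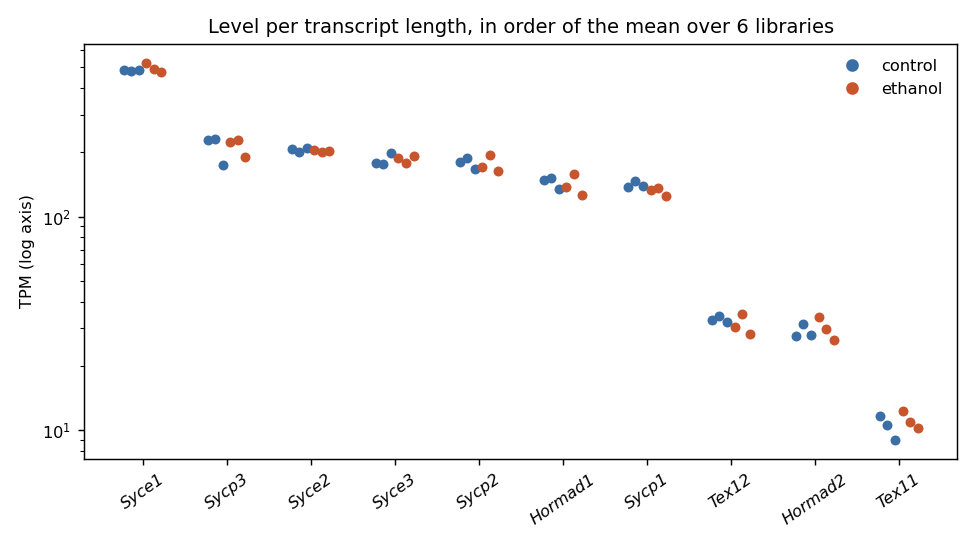
Level of each gene in TPM (log axis) in the 3 control and 3 ethanol libraries, 1 point per library, genes in order of the mean over 6 libraries. Syce1 lies near 489 TPM, Tex12 and Hormad2 near 32.1 and 29.5 TPM and Tex11 near 10.8 TPM, and the TPM of the diets overlap in all of the genes but Sycp1.

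The promoters are shown because germ cell genes of this kind are known to be kept silent in other cells through E boxes, the letters CACGTG read by MGA with MAX, and through sites of E2F6, whose core is GCGGGA. In RefSeq windows of GRCm38.p6, the assembly of mm10, 9 of the 10 members had at least 1 window, all but Tex11, and the 250 bases before each start were searched on both strands. CACGTG was found in 5 of the 9 genes, Hormad1, Sycp1, Sycp3, Syce2 and Tex12, and in 6.86% of 27025 genes with a window. GCGGGA was found in 4 of the 9, Hormad1, Sycp3, Syce2 and Tex12, and in 18.8% of genes. Both letter strings together were in those 4 members and in 1.98% of genes. The longer GGCGGGAA, which contains the shorter string, was in Hormad1, Syce2 and Tex12 and in 2.13% of genes. CNCCTCAG, the letters known for STRA8, was in Syce2 and Hormad2 and in 7.39% of genes, and AACNGTT, a MYB site, was in Sycp1 and in 4.27% of genes. These matches describe letters in a window and not binding. Both CACGTG and GCGGGA hold the letters CG. In the window of each gene richest in CG, the members had 7 to 24, beside a median of 6 over all genes. The part of CG content in the shares above was not tested. The stretches of 4 members that lie before every annotated exon follow, 5′ to 3′ on the strand of the gene, with the E box and the shorter and longer E2F6 letters, or their reverse complements, in capitals. They lie at chr3:95559427-95559676 on the forward strand for Hormad1, chr9:50561326-50561518 on the reverse strand for Tex12, chr10:88459337-88459568 on the forward strand for Sycp3 and chr3:102936101-102936350 on the reverse strand for Sycp1.
Hormad1: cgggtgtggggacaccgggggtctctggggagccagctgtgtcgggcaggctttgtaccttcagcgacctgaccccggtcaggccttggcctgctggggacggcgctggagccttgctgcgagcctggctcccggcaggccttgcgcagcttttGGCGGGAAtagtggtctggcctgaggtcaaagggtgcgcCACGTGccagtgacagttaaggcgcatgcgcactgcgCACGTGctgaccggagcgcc
Tex12: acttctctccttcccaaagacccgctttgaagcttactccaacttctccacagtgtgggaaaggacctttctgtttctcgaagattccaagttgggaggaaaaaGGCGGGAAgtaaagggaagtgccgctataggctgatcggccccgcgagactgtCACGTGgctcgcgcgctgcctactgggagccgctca
Sycp3: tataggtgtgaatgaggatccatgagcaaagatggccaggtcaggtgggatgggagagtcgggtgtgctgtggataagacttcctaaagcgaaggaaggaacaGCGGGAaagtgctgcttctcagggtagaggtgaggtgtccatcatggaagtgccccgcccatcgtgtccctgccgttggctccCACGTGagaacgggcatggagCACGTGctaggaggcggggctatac
Sycp1: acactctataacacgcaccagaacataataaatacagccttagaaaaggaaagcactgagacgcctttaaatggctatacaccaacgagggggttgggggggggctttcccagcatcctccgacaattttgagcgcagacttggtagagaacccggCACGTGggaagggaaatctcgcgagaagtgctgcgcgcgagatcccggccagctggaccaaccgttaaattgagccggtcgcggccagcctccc

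Hormad1 and Sycp3 each hold 2 copies of CACGTG in these stretches and Tex12 and Sycp1 hold 1. Hormad1 and Tex12 share the 8 letters GGCGGGAA, while the Sycp3 stretch has the 6-letter core alone and the Sycp1 stretch has neither.

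Ethanol diet and control diet were compared for each gene to ask how the chronic diet bears on the transcripts of chromosome synapsis. The differences were small. Sycp1 had the largest, a change of -10.8% with ethanol, and was the one member whose libraries did not overlap between the diets, while the other 9 overlapped. At a Benjamini-Hochberg adjusted p under 0.05, edgeR's quasi-likelihood test called 0 of 25073 genes (0%) and 0 of the 10 members (lowest adjusted p = 0.261). DESeq2 called 330 genes and limma-voom 5, with 0 members in either. At an unadjusted p under 0.05 the members counted 1 lower and 0 higher, against 13.3% of all tested genes (3343), 5.89% lower and 7.45% higher. The members' count was 3, all lower, without ethanol library 2 (Sycp1, Sycp2 and Hormad1), where 987 of 25574 genes were lower and 1538 higher. It was 2, both lower, with GC and length offsets (Sycp1 and Sycp2), where 1687 of 17359 genes were lower and 1298 higher. It was 0 without control library 3, without ethanol library 1 and on both TPM scales. Members without overlap between the diets were 1 of 10, against 18.8% of all genes. With both directions counted in the main fit, these shares of members are no higher than those of all genes. On the lower side alone, each is 1 of 10, beside 5.89% and 9.01% of all genes. The log2 fold change was below 0 for 8 of 10 members on TMM-scaled counts, for 7 with total counts alone and for 5 on the log2(TPM + 1) scale, where 48.5% of all tested genes were below 0 on TMM-scaled counts. The median over the members was -0.059, beside 0.0065 over all genes tested, and on log2(TPM + 1) it was -0.0020 beside 0.044.

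**Figure D2:**
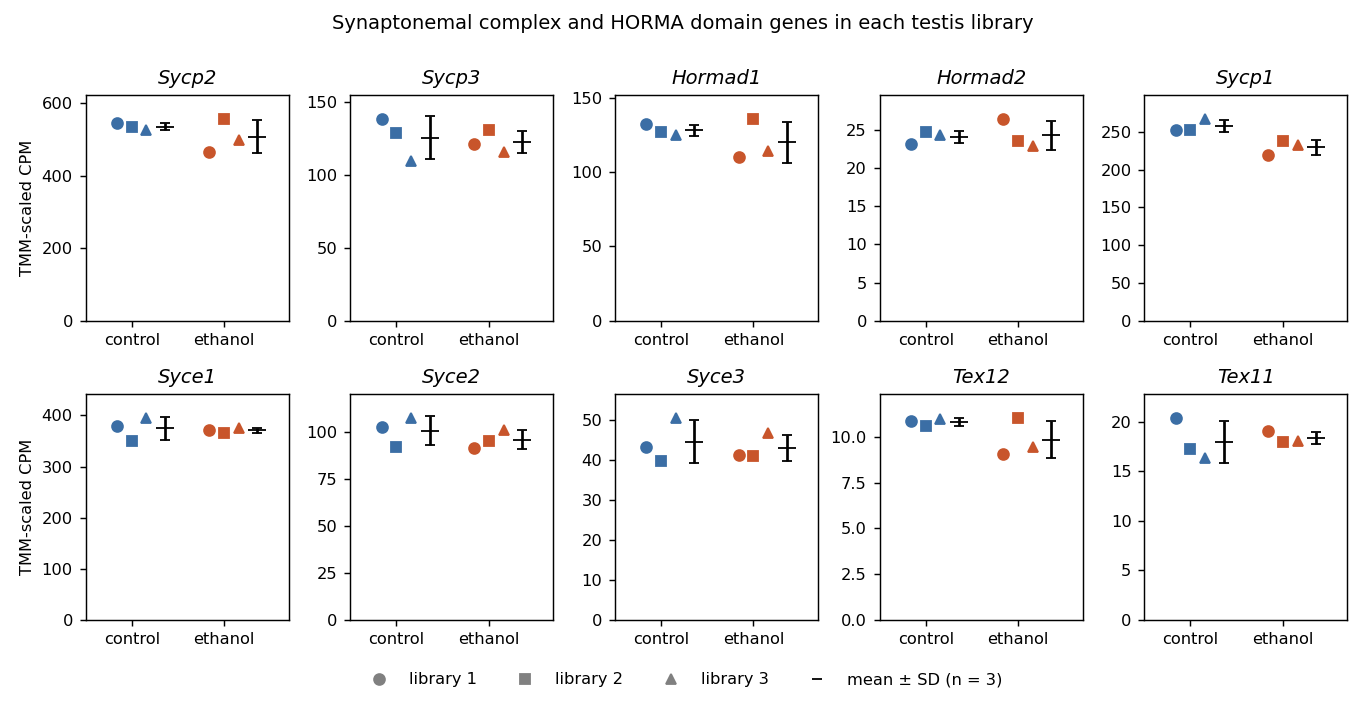
TMM-scaled CPM of each gene in every library, from 0, with library 1 as a circle, 2 as a square and 3 as a triangle, and the mean ± SD of 3 libraries in black. The 3 ethanol values of Sycp1 lie below its 3 control values, and the diets overlap in the other 9 panels.

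The transverse filament gene Sycp1 (Gene ID 20957; chromosome 3, 102818499 to 102936100) had 253, 252 and 267 CPM in control libraries 1, 2 and 3 and 219, 238 and 232 CPM in ethanol libraries 1, 2 and 3. Every ethanol library lay below every control. The log2 fold change was -0.16 (SE 0.059, edgeR adjusted p = 0.261), with a 95% interval from -18.4% to -2.45% that is not adjusted for the number of genes. In TPM the diets were also apart, at 141 ± 5.15 in controls and 131 ± 5.57 with ethanol (SD, n = 3). Set against the summed spermatocyte markers of the same library, Sycp1 was again lower in all ethanol libraries, with a mean difference of -0.11 on the log2 scale. Every other member overlapped between the diets on this measure, with differences from -0.082 for Tex12 to 0.096 for Tex11.

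Of the axis genes, Sycp2 (Gene ID 320558; chromosome 2, 178345295 to 178407776), whose product joins SYCP3 to the axis, was at 546, 533 and 527 CPM in controls and at 465, 556 and 499 CPM with ethanol. Ethanol library 2 was the highest of all 6 and ethanol library 1 the lowest, so the spread among the ethanol libraries, a coefficient of variation of 8.99%, exceeded that of 1.81% among the controls. Its log2 fold change was -0.079 (SE 0.068, edgeR adjusted p = 0.663). Sycp3 (Gene ID 20962; chromosome 10, 88459587 to 88473236), whose product coats the axis and is a common stain for spermatocytes, was at 138, 129 and 109.5 CPM in controls and at 121, 131 and 116 CPM with ethanol. Here control library 3 was the lowest of all 6, and the log2 fold change was -0.035 (SE 0.086, edgeR adjusted p = 0.899). In GENCODE M21, 660 of the 1264 exonic bases of Sycp3 also belong to exons of Chpt1, a gene of phospholipid synthesis on the opposite strand. Since the counting's strand setting is not given in the sources used here, reads of this pair may not have been separated. Chpt1, named for this overlap, differed by 0.13 on the log2 scale (SE 0.067, edgeR adjusted p = 0.416).

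The 4 genes of the central element differed from one another in how the libraries lay. Syce1 (Gene ID 74075; chromosome 7, 140777229 to 140787854), whose product binds the ends of the filaments, was at 380, 350.4 and 394 CPM in controls and at 371, 365 and 376 CPM with ethanol. All 3 ethanol values lay inside the control range, and the interval of the diet difference ran from -9.66% to 8.32%, the narrowest of those that hold 0 among the members. Syce2 (Gene ID 71846; chromosome 8, 84872111 to 84887446), which pairs with TEX12 in fibres that run along the complex, was at 103, 92.0 and 107 CPM and at 91.4, 95.01 and 101 CPM, and differed by -0.070 on the log2 scale (SE 0.072, edgeR adjusted p = 0.727). Syce3 (Gene ID 75459; chromosome 15, 89390174 to 89410503), a small protein that recruits the other central element proteins, was at 43.2, 39.7 and 50.3 CPM and at 41.3, 41.0 and 46.6 CPM. In both diets library 3 was the highest for Syce3, and its log2 fold change was -0.048 (SE 0.093, edgeR adjusted p = 0.870). Tex12 (Gene ID 66654; chromosome 9, 50557148 to 50561268) was at 10.9, 10.6 and 11.0 CPM in controls and at 9.09, 11.0 and 9.45 CPM with ethanol. Ethanol libraries 1 and 3 lay below all controls and ethanol library 2 marginally above them, and the log2 fold change was -0.14 (SE 0.11, edgeR adjusted p = 0.633). The Tex12 interval was the widest on the lower side, from -22.7% to 7.21%.

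Of the HORMA domain genes, Hormad1 (Gene ID 67981; chromosome 3, 95559677 to 95587863), needed for break formation and pairing, was at 132, 127 and 125 CPM in controls and at 110.2, 135 and 114 CPM with ethanol. Like Tex12, it was highest of all in ethanol library 2 and below every control in ethanol libraries 1 and 3. Its log2 fold change was -0.096 (SE 0.079, edgeR adjusted p = 0.646). Hormad2 (Gene ID 75828; chromosome 11, 4345801 to 4441198), which acts in the checkpoint that watches unpaired axes, was at 23.2, 24.8 and 24.3 CPM and at 26.4, 23.5 and 23.0 CPM. Ethanol library 1, the lowest for Hormad1, was the highest for Hormad2, and the log2 fold change was 0.011 (SE 0.082, edgeR adjusted p = 0.973). Tex11 (Gene ID 83558; chromosome X, 100838648 to 101059639) was at 20.4, 17.2 and 16.3 CPM in controls and at 19.1, 18.0 and 18.0 CPM with ethanol. All 3 ethanol values lay within the control range, and the difference was 0.030 on the log2 scale (SE 0.098, edgeR adjusted p = 0.924), with an interval from -11.9% to 18.4%. The signs of Sycp3, Syce1, Syce3, Hormad2 and Tex11 each turned in at least 1 other setting.

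**Figure D3:**
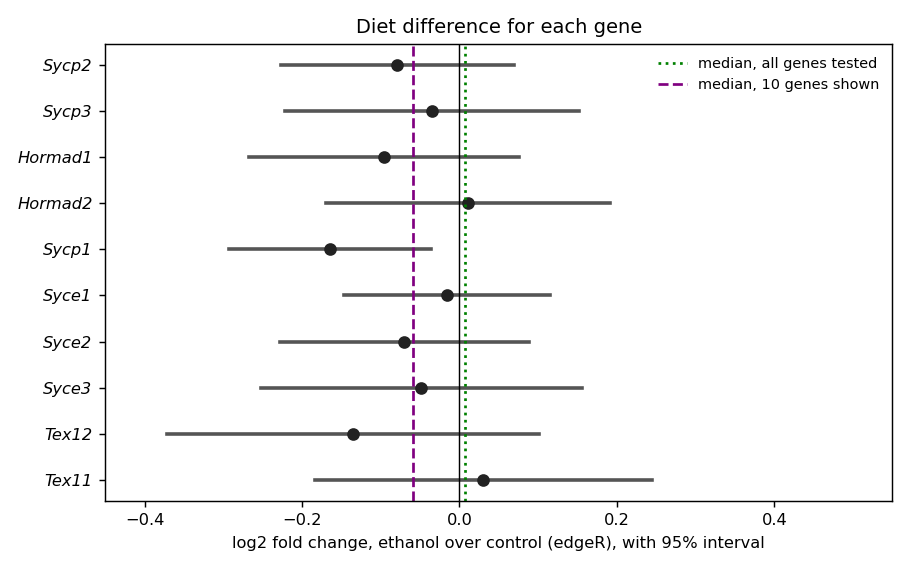
Log2 fold change of each gene, ethanol over control, as a point with its 95% interval from the edgeR fit, not adjusted for the number of genes. The interval of Sycp1, from -0.29 to -0.036, is the one that leaves out 0, and the dashed line marks the median of the 10 genes at -0.059.

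Across the 6 libraries some members deviated alike, in a set that crosses places in the complex and in another made up of central element genes. Deviations are log2 CPM minus the gene's mean over 6 libraries. In Sycp2, Hormad1 and Tex12 ethanol library 2 was at 0.095, 0.13 and 0.095, and ethanol library 1 at -0.16, -0.17 and -0.18. Their 3 control libraries lay between 0.016 and 0.096. The axis gene, the HORMA domain gene and the central element gene were therefore high in the same libraries and low in the same libraries. Syce1, Syce2 and Syce3 were each highest in control library 3, at 0.082, 0.13 and 0.21. In control library 2 they were low, at -0.088, -0.092 and -0.13. That library was the lowest for Syce1 and Syce3, and ethanol library 1, at -0.10, was the lowest for Syce2. Sycp3 ran the other way in control library 3, at -0.18, and Tex11 was low there too, at -0.15.

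**Figure D4:**
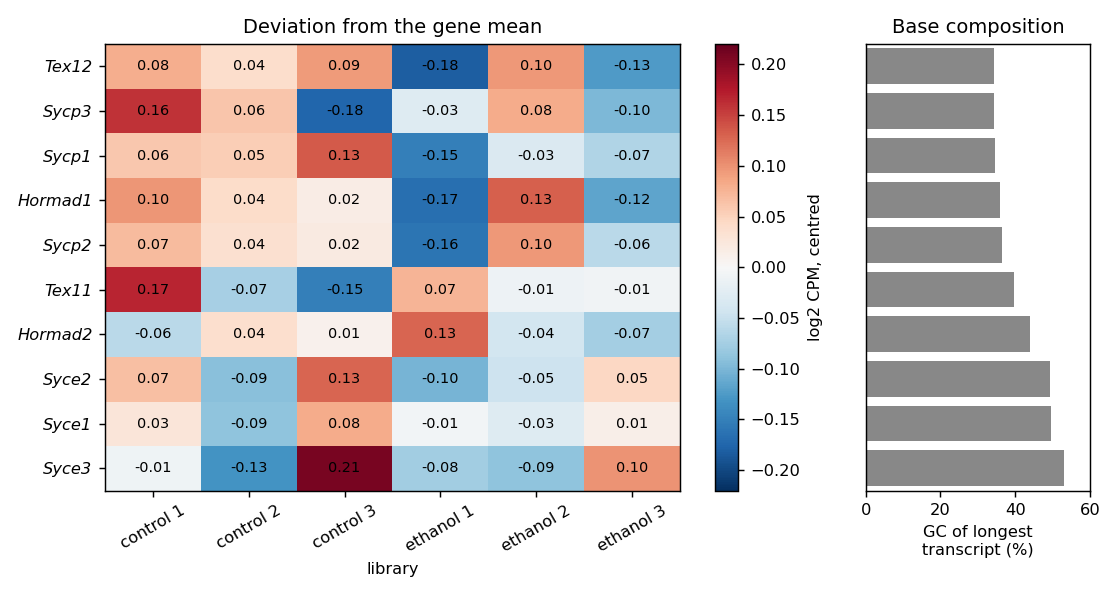
Deviation of each gene from its mean in every library (log2 CPM, printed in each cell; red above and blue below), with genes in order of the GC content of their longest transcript, drawn as bars. Sycp2, Hormad1 and Tex12 are blue in ethanol libraries 1 and 3 and red in ethanol library 2, and Syce1, Syce2 and Syce3, at the foot, are red in control library 3.

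These sets were picked by their deviations after the values were seen, and they differ in base composition. Among the 15 pairs of members both under 40% GC, the correlation of deviations ran from -0.43 to 0.98. Among the 6 pairs both at 40% GC or more, it ran from -0.59 to 0.90. The longest GENCODE transcripts of Tex12, Sycp3, Sycp1, Hormad1 and Sycp2 had a GC content of 34.3%, 34.3%, 34.6%, 35.8% and 36.4%, where the median of all tested genes with a value was 49.3%. Syce2, Syce1 and Syce3 had 49.3%, 49.5% and 52.9%, and Tex11 and Hormad2 stood between, at 39.8% and 43.9%. Sycp1 and Sycp3, low in GC but outside the first set, deviated by -0.031 and 0.081 in ethanol library 2. In ethanol library 1 they deviated by -0.15 and -0.028. Among the 140 genes of 34% to 37% GC whose mean reached 5 CPM, the median deviation was 0.064 in ethanol library 2 and -0.054 in ethanol library 1. In ethanol library 3, where Sycp2, Hormad1 and Tex12 lay at -0.059, -0.12 and -0.13, it was -0.0093. Among the 2522 genes of 48% to 52% GC it was -0.0032 in ethanol library 2 and 0.011 in ethanol library 1. In control library 2, where Syce1, Syce2 and Syce3 were low, the median of that class was -0.0037. In control library 3, where they were highest, it was -0.0023. Offsets for GC content and transcript length were fitted together as an alternative, added after the data were seen and run over 17359 genes. They do not isolate the part of GC content, which was not tested. With these offsets Sycp1 was at -0.17 (edgeR adjusted p = 0.161), Sycp2 moved to -0.13 (0.276), and Hormad1 and Tex12 moved to -0.063 and -0.087. Likeness was measured as the root mean square difference from the median deviation of the members over 6 libraries, and the 5 most alike of 13219 other genes were Sypl, Nek10, Kctd19, Wdr48 and Zfp110, with differences of 0.015 to 0.018 on the log2 scale.

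Proteins of the complex bind one another in fixed partners, so the ratio of partner transcripts was compared within each library, where library scaling cancels. In 6 pairs no ratio separated the diets: the exact two-sided permutation test gave p from 0.4 to 0.8, and an adjusted p of at least 0.72, where 3 against 3 libraries cannot go below 0.1. Syce2 was 6.23 ± 0.37 times as abundant as its partner Tex12 in controls and 6.55 ± 0.75 times with ethanol (SD, n = 3), in TPM. Hormad1 was 5.01 ± 0.31 times as abundant as Hormad2 in controls. With ethanol that ratio was 4.73 ± 0.65, with 4.05 in library 1 as the lowest of all 6 libraries. Sycp2 stood at 0.85 ± 0.089 of Sycp3 in controls and 0.82 ± 0.050 with ethanol, and Sycp1 at 0.68 ± 0.10 and 0.61 ± 0.036 of Sycp3. Syce1 was 2.62 ± 0.17 and 2.67 ± 0.16 times as abundant as Syce3. Tex11 stood at 0.058 ± 0.0058 and 0.064 ± 0.0079 of Sycp2. The largest mean differences between the diets were -0.13 on the log2 scale for Sycp1 over Sycp3 and 0.12 for Tex11 over Sycp2, both under the SD of the controls for the same ratio, 0.22 and 0.14.

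Other genes of meiotic prophase were taken from 8 lists by role, 85 genes in all, which were all tested. Of these, 0 passed an adjusted p of 0.05. At an unadjusted p under 0.05 there were 7 lower and 3 higher, or 11.8% against 13.3% of all genes. With the GC and length offsets there were 14 lower and 1 higher, where 1687 of all 17359 genes in that fit were lower and 1298 higher. Below 0 were 53 of the 85 on TMM-scaled counts, 46 with total counts alone and 38 on log2(TPM + 1), and the median was -0.033. Without overlap between the diets, 20 lay lower with ethanol and 3 higher, where 9.01% and 9.76% of all genes did. That is 20 of 85 on the lower side beside 1 of 10 among the members, and the difference between these shares was not tested.

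**Figure D5:**
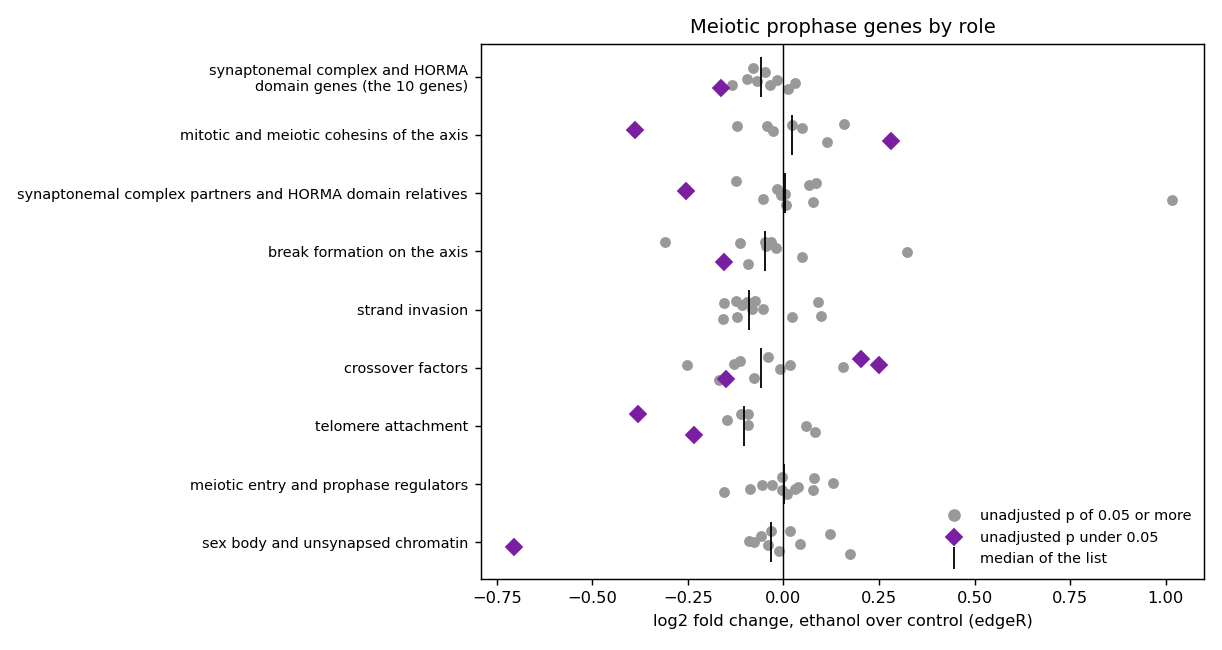
Log2 fold change, ethanol over control, of the 10 genes and of 85 other meiotic prophase genes in 8 lists by role. Diamonds mark an unadjusted edgeR p under 0.05, grey circles the rest and bars the median of each list. The 10 genes lie within -0.16 and 0.030, while Rec8 and Terb2 lie near -0.39 and -0.38 and H2afx near -0.71. The point near 1.02 is Sycp2l, read at 0.22 TPM on average and at 0 counts in control library 3.

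Among the cohesins, the rings on which the axis is built, Rec8, the meiotic kleisin subunit, was at 67.3, 71.1 and 70.0 CPM in controls and at 57.7, 47.7 and 53.7 CPM with ethanol. The difference, -0.39 on the log2 scale (SE 0.077, edgeR adjusted p = 0.145), was larger than that of any member, and DESeq2 called it (adjusted p = 0.00332). The longest transcript of Rec8 has 56.7% GC. Among genes whose mean reached 5 CPM, the median log2 fold change was -0.079 for 1704 genes of 56% GC and above. It was -0.0084 for 140 genes of 34% to 37% GC. The part of GC content in such differences was not tested. The mitotic ring subunits Smc1a and Stag1 stood higher with ethanol in all libraries, at 0.28 (SE 0.11) and 0.11 (SE 0.058), with edgeR adjusted p of 0.317 and 0.430. The other mitotic subunits overlapped between the diets, with Stag2 at -0.043, Smc3, shared with the meiotic rings, at -0.027 and Rad21 at 0.048. The meiotic Stag3 and Rad21l also overlapped, at 0.022 and 0.16, while Smc1b lay lower in all ethanol libraries, at -0.12. These 6 genes were named after their values were seen. The partner of SYCE1 and SYCP1 in the central element, 4930447C04Rik (Six6os1), had 25.5 ± 2.42 CPM in control libraries and 24.6 ± 3.40 CPM in ethanol libraries. Trip13, which strips HORMADs from the axis, was at 12.3 ± 0.56 and 13.03 ± 1.10 CPM. The relative Syce1l was read at 41.8 TPM and Sycp2l at 0.22 TPM on average. Of the 11 partners and HORMA domain relatives, 1 had an unadjusted p under 0.05, Hspa2, a chaperone needed to take the complex apart at the end of pachytene. Controls had 1279 ± 29.0 CPM and ethanol libraries 1073 ± 80.2 CPM, which is -0.25 on the log2 scale (SE 0.063, edgeR adjusted p = 0.156), and DESeq2 called it as well (adjusted p = 0.0337). The longest Hspa2 transcript has 53.6% GC, and the median of the 2170 genes of 52% to 56% GC was -0.025.

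Of the genes that tie telomeres to the nuclear envelope so that homologues can find each other, Ccdc155, also known as Kash5, had 91.2 ± 6.79 CPM in control libraries and 77.5 ± 2.70 CPM in ethanol libraries, and Terb2 at 7.45 ± 0.65 and 5.72 ± 0.29 CPM. Their log2 fold changes were -0.23 (SE 0.069) and -0.38 (SE 0.12), with edgeR adjusted p of 0.198 and 0.220. H2afx, the histone variant that marks breaks and the sex body, was at 127, 135 and 204 CPM in controls and at 82.3, 77.7 and 125 CPM with ethanol. Library 3 was the highest in both diets, and the log2 fold change was -0.71 (SE 0.19, edgeR adjusted p = 0.179). Without control library 3 it moved to -0.47. The longest transcripts of Ccdc155, H2afx and Terb2 have 58.2%, 62.3% and 38.4% GC. The part of GC content in their differences was not tested. Crossover factors went both ways, with Cntd1 at -0.15 (SE 0.058) and M1ap, whose product is known to bind TEX11, at 0.25 (SE 0.087). Their edgeR adjusted p values were 0.296 and 0.251. The sex chromatin genes Zfy1 and Scml2 stood at 0.17 (SE 0.10) and 0.12 (SE 0.10), with edgeR adjusted p of 0.506 and 0.647. Of the 10 single genes of the spermatocyte marker list, 9 had a log2 fold change below 0, with a median of -0.084, and 0 were called. Without overlap between the diets, 5 lay lower with ethanol and 0 higher, where 9.01% and 9.76% of all genes did. At an unadjusted edgeR p under 0.05, 3 were lower and 0 higher, against 5.89% and 7.45% of all genes. Their summed level overlapped between the diets. The part of these markers in the members' differences was not tested. Round spermatid markers also lay lower, with 7 of 8 below 0 and a median of -0.16. Elongating spermatid markers had 4 of 8 below 0 (median -0.0055) and spermatogonia markers 2 of 8 (median 0.12).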

How the data were processed

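Total RNA of mouse testis was sequenced in 6 libraries, prepared with a strand-specific total RNA kit and depleted of ribosomal RNA, per the labels' protocols. Per the submitters' processing notes, HISAT2 and the build mm10 were used. Version, counter, strand setting and annotation: not given in the sources used here. The authors deposited whole-number read counts per gene without normalization, and TPM that they computed, per the file headers; 0 sample columns lay outside these libraries.

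The counts were tested with edgeR 4.0.16 in R 4.3.3 after filterByExpr and TMM scaling, using its quasi-likelihood test on diet alone and adjusting p-values over 25073 genes (Benjamini-Hochberg). A standard error is the log2 fold change divided by the root of its F, and 95% intervals from the t distribution with the fitted degrees of freedom. The closest of 15 library pairs had a chi-square of 7.18 per gene, above sampling noise, so no library was a duplicate. The least abundant member by count, Tex12, had 361 to 510 reads, and counting error is part of its spread between libraries. The size of that part was not tested.

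The members, lists and motifs were chosen with earlier results of these data known. Named pathway genes were the 6 of smallest p in each direction with a mean of at least 1 TPM, of which 1 is not reported here; 4930447C04Rik, Trip13, Syce1l and Sycp2l were picked from their list by role, and Chpt1 for its overlap. Of 87 pathway symbols 9 were matched by synonym and 2 were not matched. Alternatives were other scalings and filters, DESeq2 1.42.0, limma 3.58.1 (voom, and log2(TPM + 1) and log2(TPM + 0.1)), a replicate block, each library left out, and GC and length offsets over the 17359 genes with both. The fit was tested on simulated data with known changes, 50 genes at each size. It recovered 28% of changes of 1.25-fold, 78% of 1.5-fold and 100% of 2-fold and of 4-fold, with 12 false calls among 24664 genes. Adjusted p-values depend on how many genes change, and these changes were planted together. The real fit called 0 genes, so these shares may be too high for it. The members' differences were all smaller than 1.25-fold.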

Additional observations from a re-analysis of the deposited data

How the results depend on the processing

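The 10 members were called in 0 of the settings run, and the signs of Sycp1, Sycp2, Syce2, Tex12 and Hormad1 were below 0 in each. Over all genes edgeR called 0, against 330 by DESeq2, 5 by limma-voom, 2 with upper-quartile scaling, 2 with the stricter filter, 4 with GC and length offsets, and 0 to 3 with 1 library left out. The median of the members was -0.033 with total counts alone, -0.0020 on log2(TPM + 1) and on log2(TPM + 0.1), where 5 members were below 0, and -0.093 to -0.032 with 1 library left out (-0.093 without control library 2 and -0.032 without ethanol library 1). Over all genes tested the median was 0.032 with total counts alone, 0.044 on log2(TPM + 1) and 0.058 on log2(TPM + 0.1), beside 0.0065 in the main fit. Signs turned for Syce1 with total counts alone (0.011), for Sycp3, Syce1 and Syce3 on log2(TPM + 1) (0.026, 0.042 and 0.014) and log2(TPM + 0.1) (0.027, 0.042 and 0.014), and for Sycp3 with offsets (0.013). With 1 library left out, Sycp3 ranged from -0.13 to 0.032, Syce1 from -0.063 to 0.016, Syce3 from -0.12 to 0.044, Hormad2 from -0.053 to 0.042, Tex11 from -0.040 to 0.12 and 4930447C04Rik from -0.15 to 0.048. The ethanol minus control difference in the log2 ratio Sycp2/Sycp3 likewise ranged from -0.11 to 0.032, Syce1/Syce3 from -0.026 to 0.080, Hormad1/Hormad2 from -0.18 to 0.016 and Syce2/Tex12 from -0.00014 to 0.16. The cause of these shifts was not tested.

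With the replicate block 15 genes were called, 0 of them members, and H2afx passed (adjusted p = 0.00222). The labels do not say whether the replicate numbers pair the libraries. Deviations of same-numbered libraries correlated at -0.14, 0.029 and 0.42 over 13229 genes. Those of differently numbered libraries ranged from -0.45 (control 2 with ethanol 3) to 0.47 (control 2 with ethanol 1). With deviations taken from the mean of 3 libraries per diet, these values cannot settle pairing. Sycp1 lost its unadjusted p under 0.05 without control library 3 (-0.14) and without ethanol library 1 (-0.13), and on both TPM scales (-0.10 and -0.11).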
